A study of Mus musculus with 6 samples.

Results

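The genes described here are 10 parts of the Wnt7 and Norrin signalling system of brain blood vessels, taken from the count table by their symbols. They are the ligand genes Wnt7a, Wnt7b and Ndp, the receptor genes Reck, Fzd4, Lrp5 and Tspan12, and the target genes Lef1, Axin2 and Apcdd1. All 10 were in the table of 52459 symbols, and all 10 passed the filter on low counts that left 19565 genes for testing. The libraries were bulk RNA sequencing of whole brains from E14.5 embryos of the C57BL/6 strain, 3 Mfsd7c-/- knockout and 3 wild-type. The part of Mfsd7c that was deleted and the litters of the embryos are not given in the labels, so p-values cover only the variation among these 6 samples, which may in part be technical. Values of single libraries are listed in the order of replicates 1, 2 and 3. In whole brain, fewer cells of a type and less RNA per cell cannot be told apart.

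Wnt7a and Wnt7b are secreted by neural progenitors and neurons and act on endothelial cells, where Reck and Adgra2 (Gpr124) make a Frizzled receptor responsive to them. Norrin, the product of Ndp, is no Wnt protein but binds Fzd4, with Lrp5 as co-receptor and Tspan12 as an auxiliary subunit. Both inputs stabilise beta-catenin, which acts with DNA-binding proteins such as Lef1, and both are known for their part in vessel growth and the blood-brain barrier. Axin2 and Apcdd1 encode feedback inhibitors of the pathway, and all 3 target genes are also expressed outside vessels.

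Proteins of the Lef1 family recognise the core CTTTG followed by 2 letters that are each A or T. The 250 bases before the annotated start site were searched for both forms on both strands. Lef1 and Axin2 are shown as readouts of the pathway, and Fzd4 as the gene with the lowest p-value of the 10. The RefSeq table (GRCm38.p6) matched 7 of the 10 genes, all but Wnt7b, Lrp5 and Apcdd1. The promoters of Fzd4 (chr7:89404116-89404365, plus strand), Lef1 (chr3:131110047-131110296, plus strand, the most upstream of 4 windows) and Axin2 (chr11:108920099-108920348, plus strand) are shown 5′ to 3′, with each CTTTG or its reverse complement CAAAG in capitals.
Fzd4: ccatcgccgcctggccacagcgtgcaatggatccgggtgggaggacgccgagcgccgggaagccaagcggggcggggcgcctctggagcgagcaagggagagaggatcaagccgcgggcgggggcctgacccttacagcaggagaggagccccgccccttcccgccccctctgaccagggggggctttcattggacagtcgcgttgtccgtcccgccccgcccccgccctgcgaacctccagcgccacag
Lef1: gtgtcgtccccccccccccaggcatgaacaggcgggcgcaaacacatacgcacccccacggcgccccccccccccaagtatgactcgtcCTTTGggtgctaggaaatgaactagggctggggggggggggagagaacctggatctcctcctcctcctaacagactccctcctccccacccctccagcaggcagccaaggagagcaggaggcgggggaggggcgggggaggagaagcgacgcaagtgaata
Axin2: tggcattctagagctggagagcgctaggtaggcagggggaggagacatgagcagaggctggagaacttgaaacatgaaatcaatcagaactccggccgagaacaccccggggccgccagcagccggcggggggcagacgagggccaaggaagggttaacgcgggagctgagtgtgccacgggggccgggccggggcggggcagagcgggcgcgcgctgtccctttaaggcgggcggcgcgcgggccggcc
The 5-letter core stood once in the Lef1 window, 161 bases before the start, and in neither of the other 2. Of 32851 mouse promoter windows of this length, 48.6% held the core on either strand. The 7-letter form was in 14.8% of them, and among the 7 genes it was in Ndp and Reck, shown here with the matched letters in capitals.
Ndp: accctgtCTTTGTAtttccaa
Reck: ggcccatAACAAAGagccagg
The Ndp stretch is chrX:16911932-16911952, minus strand, and the Reck stretch is chr4:43875402-43875422, plus strand, where the match reads on the opposite strand. These matches are letters in a sequence and say nothing of binding.

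The libraries held 43784619 to 50549673 counts. Mfsd7c had 119, 129 and 130 counts in the knockout libraries, against 206, 291 and 259 in the wild-type libraries, and its log2 fold change was -0.96, with an SE of 0.147 and an adjusted p of 0.0271 (edgeR quasi-likelihood, Benjamini-Hochberg). That call was lost in 5 of the 6 fits without 1 library, where edgeR adjusted p ran from 0.109 to 0.189, and was kept without wild-type replicate 1 (0.0108). Some libraries stood apart from the rest. Summed epidermal markers reached 532 CPM (counts scaled to a common library size) in knockout replicate 1 and 455 CPM in wild-type replicate 1, against 26.3 to 99.4 CPM in the other 4. Summed Hox genes of the hindbrain and spinal cord reached 158 and 43.4 CPM in wild-type replicates 2 and 3, and at most 4.35 CPM elsewhere. The embryonic share of beta-globin counts was 2.80%, 23.6% and 5.03% in the knockout libraries and 4.49%, 23.3% and 26.5% in the wild-type libraries. Neuronal markers, which define the labelled tissue, summed to 6994 to 7760 CPM in knockout and 6939 to 8079 CPM in wild-type brains.

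Fzd4 and Lrp5, the paired receptors of Norrin, were higher and the feedback inhibitor gene Apcdd1 was lower in every knockout than in every wild-type library. In edgeR 0 of the 10 genes passed an adjusted p of 0.05, where 0.659% of all genes tested passed, 0.624% as higher and 0.0358% as lower in knockout. The ligands Wnt7a, Wnt7b and Ndp, the receptor parts Reck and Tspan12, and the targets Lef1 and Axin2 overlapped between the groups. At an unadjusted p of 0.05 in edgeR, 2 genes were higher and 1 lower, or 30% of the 10, against 8.09% of all genes tested, 4.63% higher and 3.46% lower. The same 3 genes had no overlap between the groups, which held for 14.4% of all genes, 7.84% with knockout above and 6.58% with knockout below. The 10 genes were chosen with results of these data known, so a share above the background is a description. DESeq2 passed 2 of the 10, Fzd4 and Lrp5, both higher, with a background of 1.48% in either direction and 1.2% higher, and limma-voom passed 0. The median log2 fold change was 0.19 for the 4 receptor parts, 0.04 for the 3 ligands and 0.00403 for the 3 targets, beside -0.00985 for all genes tested.

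**Figure D1:**
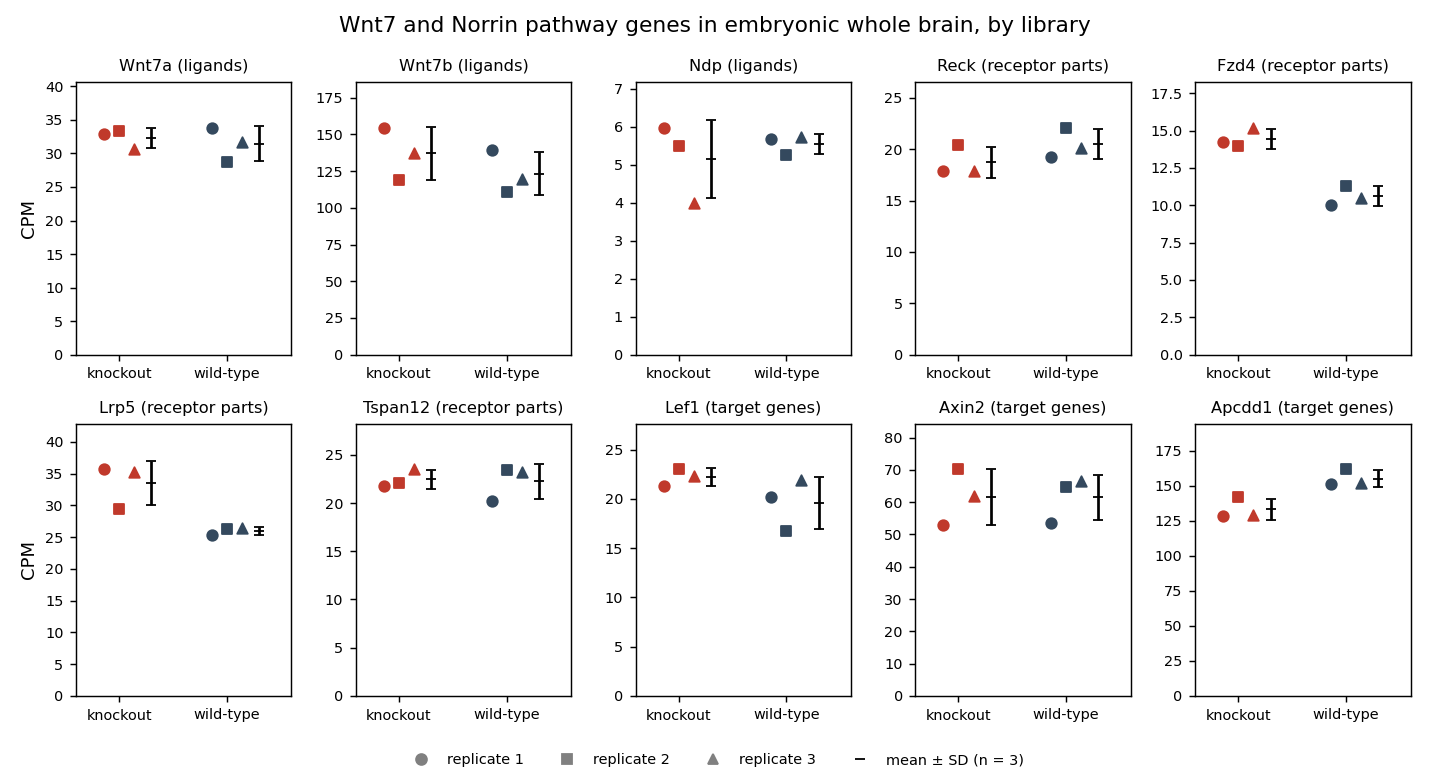
CPM of each gene (vertical axis, from 0) in the 3 knockout (red, left) and 3 wild-type (dark, right) libraries, with a marker shape for each replicate number and black bars for the mean and SD of 3. Fzd4 and Lrp5 are above all wild-type values and Apcdd1 is below them, while the other 7 genes overlap.

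Fzd4 encodes the Frizzled receptor of Norrin and lies on chromosome 7 from 89404355 to 89413134 in GRCm38, the build of all gene coordinates given here. It was at 14.2, 13.9 and 15.2 CPM in the knockout libraries, against 9.99, 11.3 and 10.5 CPM in the wild-type libraries. The lowest knockout value was above the highest wild-type value. The means were 14.5 ± 0.656 CPM in knockout and 10.6 ± 0.672 CPM in wild-type brains (SD, n = 3 each), a ratio of 1.36 with a 95% interval of 1.18 to 1.58. The log2 fold change was 0.45, with an SE of 0.0938 and an edgeR adjusted p of 0.117. It was the gene of the 10 with the lowest p-value, and it passed in the DESeq2 Wald test (adjusted p = 0.00631) and in edgeR with a term for low or high embryonic globin share (adjusted p = 0.0433, where 1.21% of all genes passed). Over all 16 alternatives its adjusted p ran from 0.00631 to 0.554 and its log2 fold change from 0.41 to 0.54.

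Lrp5, the co-receptor that pairs with Fzd4, lies on chromosome 19 from 3584828 to 3686564. It was at 35.7, 29.5 and 35.2 CPM in the knockout libraries, against 25.3, 26.2 and 26.4 CPM in the wild-type libraries. All 3 knockout values were above the wild-type ones, and knockout replicate 2 was nearest to them. The means were 33.5 ± 3.49 CPM in knockout and 26.0 ± 0.630 CPM in wild-type brains (SD, n = 3 each), a ratio of 1.29. The log2 fold change was 0.37 with a 95% interval of 0.17 to 0.56 (SE 0.0865), and edgeR gave an adjusted p of 0.187. The DESeq2 Wald test passed it (adjusted p = 0.0294), and over the 16 alternatives its adjusted p ran up to 0.779. In the authors' deposited table the adjusted p was 0.00623 for Fzd4 and 0.0290 for Lrp5.

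The groups overlapped for the other 2 receptor parts. Tspan12, the tetraspanin that enhances Norrin signalling through Fzd4, lies on chromosome 6 from 21771395 to 21852515. It was at 21.7, 22.1 and 23.5 CPM in the knockout libraries, against 20.2, 23.4 and 23.2 CPM in the wild-type libraries. These values overlapped, and the ratio of 1.01 had a 95% interval on the log2 scale of -0.18 to 0.20 (edgeR adjusted p = 0.984). Reck, a membrane-anchored protein that binds Wnt7, lies on chromosome 4 from 43875530 to 43944806. It was at 17.8, 20.4 and 17.9 CPM in the knockout libraries, against 19.3, 22.1 and 20.1 CPM in the wild-type libraries. Knockout replicates 1 and 3 were below every wild-type value and knockout replicate 2 was not. The ratio was 0.913 with a 95% interval of 0.791 to 1.05 (edgeR adjusted p = 0.767). Adgra2, the partner of Reck, was chosen after its values were seen and averaged 33.5 CPM in knockout and 37.4 CPM in wild-type brains, or -0.16 on the log2 scale with an SE of 0.0838 (edgeR adjusted p = 0.690).

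Among the ligands, Wnt7b was the highest of the 10 genes in RPKM (CPM per kilobase of exon). Wnt7b lies on chromosome 15 from 85535437 to 85582473 and was at 155, 119 and 138 CPM in the knockout libraries, against 139, 111 and 120 CPM in the wild-type libraries. Within each group replicate 2 was the lowest. The ratio was 1.11 with a 95% interval of 0.933 to 1.32 (edgeR adjusted p = 0.784). Its exons overlap those of AU022754 on the other strand, which had medians of 131 counts in knockout and 180 in wild-type brains, against 5567 to 6670 counts of Wnt7b.

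Wnt7a lies on chromosome 6 from 91363981 to 91411363 and was at 33.0, 33.3 and 30.6 CPM in the knockout libraries. In the wild-type libraries it was at 33.8, 28.7 and 31.8 CPM, a range that holds all 3 knockout values. The ratio of 1.03 had a 95% interval of 0.905 to 1.17 (edgeR adjusted p = 0.939). Ndp lies on chromosome X from 16885521 to 16911774 and was the scarcest of the 10 in counts. It was at 5.98, 5.50 and 4.01 CPM in the knockout libraries, against 5.68, 5.25 and 5.73 CPM in the wild-type libraries. Knockout replicate 3 was the lowest of the 6 libraries and knockout replicate 1 the highest, and the interval of the ratio was 0.715 to 1.21 (edgeR adjusted p = 0.910). Wild-type replicate 2 was the single library rich in Xist, with 82198 counts against 6 to 27 in the others, and its Ndp value was the lowest of the 3 wild-type ones.

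Of the target genes, Apcdd1 on chromosome 18 encodes a membrane-bound inhibitor that binds Wnt proteins. It was at 128, 142 and 129 CPM in the knockout libraries, against 151, 162 and 152 CPM in the wild-type libraries. All knockout values were below all wild-type values. The means were 133 ± 7.48 CPM in knockout and 155 ± 6.00 CPM in wild-type brains (SD, n = 3 each), a ratio of 0.859 with a 95% interval of 0.780 to 0.946. The log2 fold change was -0.22, with an SE of 0.0608 and an edgeR adjusted p of 0.303. No alternative passed it, with adjusted p from 0.0649 to 0.999, and its log2 fold change stayed between -0.27 and -0.18.

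Lef1 lies on chromosome 3 from 131110471 to 131224356 and was at 21.3, 23.0 and 22.3 CPM in the knockout libraries. In the wild-type libraries it was at 20.2, 16.7 and 21.9 CPM, so knockout replicates 2 and 3 were above every wild-type value and knockout replicate 1 was not. The ratio was 1.13 with a 95% interval of 0.961 to 1.34 (edgeR adjusted p = 0.715). Its log2 fold change of 0.18 was 0.08 without wild-type replicate 2, the lowest library, and 0.27 without wild-type replicate 3. Axin2, a scaffold protein of the complex that degrades beta-catenin, lies on chromosome 11 from 108920349 to 108950783. It was at 53.1, 70.3 and 61.8 CPM in the knockout libraries, against 53.5, 64.7 and 66.4 CPM in the wild-type libraries. Both replicates numbered 1 were low, and the means were 61.7 ± 8.62 CPM in knockout and 61.5 ± 6.99 CPM in wild-type brains (SD, n = 3 each). The 95% interval of its log2 fold change was -0.26 to 0.27 (edgeR adjusted p = 0.995).

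**Figure D2:**
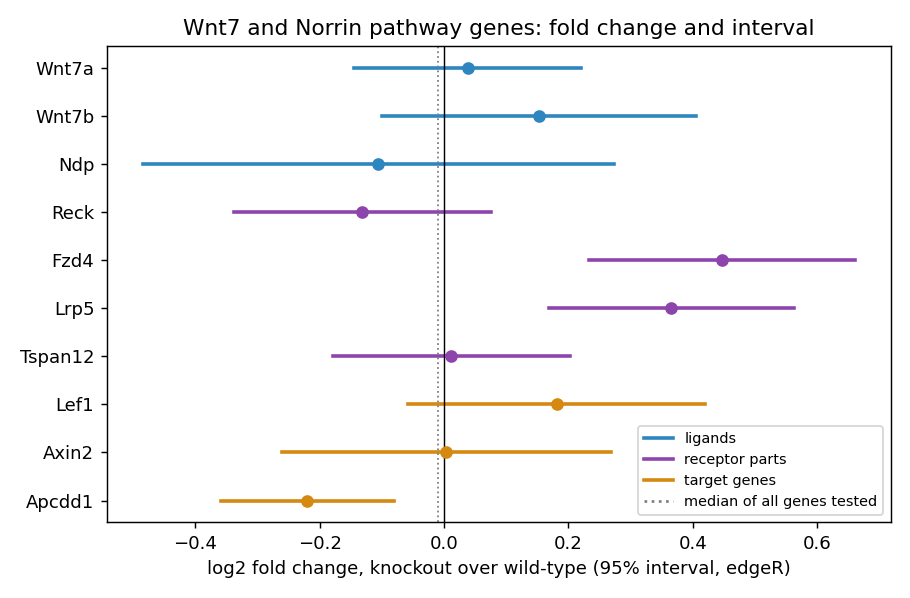
Log2 fold change of knockout over wild-type (horizontal axis, points) with its 95% interval (lines) for the 10 genes, coloured by role, and the median of all genes tested as a dotted line. The unadjusted intervals of Fzd4, Lrp5 and Apcdd1 leave out 0, and those of the other 7 genes include it.

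Ratios between genes were also taken within libraries. These contrasts, and those with endothelial markers that follow, were chosen after the values were seen and are given with no test. The log2 ratio of Fzd4 to Apcdd1 counts was -3.17, -3.35 and -3.09 in the knockout libraries, against -3.92, -3.84 and -3.86 in the wild-type libraries. A ratio of counts within a library does not depend on the scaling between libraries. In CPM, Fzd4 was higher and Apcdd1 lower in every knockout library, so their ratio could not overlap between the groups. The lack of overlap in this ratio therefore adds nothing to the CPM values. The log2 ratio of Fzd4 to Lrp5, both receptor parts, was -1.33, -1.08 and -1.21 in the knockout libraries and -1.34, -1.21 and -1.33 in the wild-type libraries, with overlap.

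Endothelial markers were also higher in knockout. The 16 markers summed to 506 ± 28.0 CPM in knockout and 379 ± 32.7 CPM in wild-type brains (SD, n = 3 each), ranging from 487 to 538 CPM in knockout and from 341 to 400 CPM in wild-type brains. Of the 16, 6 rose in edgeR (Pecam1, Emcn, Eng, Cd34, Robo4 and Ecscr) and 0 fell. Over all genes tested, 0.624% rose and 0.0358% fell. At an unadjusted p under 0.05, 7 of the 16 were higher and 1 was lower, against 4.63% and 3.46% of all genes tested. DESeq2 passed 7 higher and 1 lower, with a background of 1.48% in either direction and 1.2% higher. In limma-voom 5 passed as higher and 0 as lower. Leaving out knockout replicate 1 or 3, or wild-type replicate 2 or 3, took the 6 to 2, Cd34 and Pecam1. In that order, those fits passed 51 of 20030, 41 of 20121, 36 of 19972 and 44 of 20008 genes tested. With all 6 libraries 129 of 19565 passed, so calls fell over all genes too. Leaving out knockout replicate 2 took the 6 markers to 3, where 111 of 20004 genes passed. When wild-type replicate 1 was dropped the 6 stayed, and Tek also passed as lower. In that fit 388 of 20045 genes passed. None of the 16 was at 0. Their median log2 fold change was 0.19, their range was -0.49 to 1.14, and 7 of the 16 lay above Fzd4 and 7 above Lrp5. The part of endothelial content in the values of the 10 genes was not tested.

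Set against the summed endothelial counts, Fzd4 overlapped between the groups. Its log2 ratio to that sum was -5.12, -5.13 and -5.15 in the knockout libraries, against -5.09, -5.14 and -5.23 in the wild-type libraries. Tspan12, by contrast, had a log2 ratio of -4.50, -4.46 and -4.52 in the knockout libraries, against -4.08, -4.10 and -4.09 in the wild-type libraries. That is a difference of -0.41 with no overlap, while Tspan12 in CPM overlapped. The differences of Reck at -0.55, Apcdd1 at -0.64 and Axin2 at -0.42 also came without overlap. Lef1 at -0.23 and Lrp5 at -0.06 overlapped. The endothelial sum did not overlap between the groups, so a gene that kept its CPM can lack overlap in this ratio. The share of all genes without overlap in this ratio was not counted. The sum itself was higher by 0.42 in knockout on the log2 scale, so a gene that kept its CPM shows a lower ratio. That is more than the median of 0.19 over the 16 markers, so the size of each ratio depends on how endothelial content is measured.

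**Figure D3:**
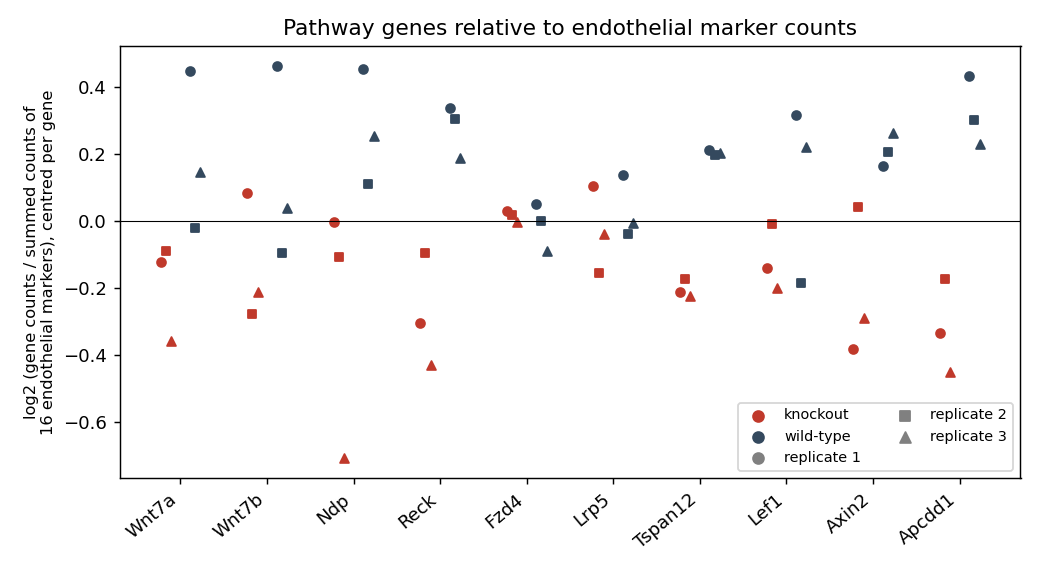
Log2 ratio of each gene's counts to the summed counts of 16 endothelial markers (vertical axis, centred on each gene's mean over 6 libraries), with knockout in red on the left of each pair, wild-type in dark on the right and a marker shape for each replicate number. Fzd4 and Lrp5 overlap between the groups, while Wnt7a, Ndp, Reck, Tspan12, Axin2 and Apcdd1 are lower in every knockout library than in every wild-type one. The endothelial sum was itself higher in every knockout library, so a gene with steady CPM is also lower in this ratio. The share of all genes without overlap was not counted.

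Levels can be set against each other per kilobase of exon. On that scale (RPKM) the order in wild-type brains ran from Wnt7b over Apcdd1, Axin2, Wnt7a, Tspan12, Reck, Ndp, Lrp5 and Lef1 to Fzd4. Wnt7b averaged 28.0 ± 3.64 RPKM in knockout and 25.2 ± 2.96 RPKM in wild-type brains, and Fzd4 2.15 ± 0.0976 RPKM in knockout and 1.58 ± 0.0999 RPKM in wild-type brains (SD, n = 3 each). The ranges over the 6 libraries overlapped between Apcdd1 and Axin2, Axin2 and Wnt7a, Ndp and Lrp5, Lrp5 and Lef1, and Lef1 and Fzd4. The other neighbours in that order did not overlap. Lengths count every annotated exon base, so a gene with long, little used exons is placed too low.

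The library sets parted by embryonic globin also differed in some of the 10 genes. In the libraries with the low embryonic globin share (knockout replicates 1 and 3 and wild-type replicate 1) Wnt7b was at 155, 138 and 139 CPM, and in the other 3 at 119, 111 and 120 CPM. Axin2 ran the other way, with 53.1, 61.8 and 53.5 CPM in the first set and 70.3, 64.7 and 66.4 CPM in the second. Reck was at 17.8, 17.9 and 19.3 CPM in the first set and 20.4, 22.1 and 20.1 CPM in the second. The values of these 3 genes did not overlap between the sets, and those of the other members did. The share of all genes that part in this way was not counted. Both genotypes are in each set, but unevenly. The first set holds both libraries high in epidermal markers, and the second holds both high in Hox genes. The stage or make-up of these libraries was not tested. With a term for the sets the log2 fold change was 0.06 for Wnt7b, 0.10 for Axin2 and -0.08 for Reck, and none of the 3 passed (edgeR adjusted p = 0.753, 0.594 and 0.746).

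Profiles closest to those of the targets were sought among 15493 other genes with a mean of at least 1 CPM, by the root mean square difference of centred log2 CPM over the 6 libraries. Dok1 and C130093G08Rik were closest to Lef1, at 0.0325 and 0.0377. Zfp932 and Map4k1 were closest to Axin2, at 0.0233 and 0.0290. For Apcdd1 they were H2afz, a histone variant, at 0.0235, and Jcad, a protein of endothelial junctions, at 0.0297. The median difference over all candidates was 0.173 to 0.197. H2afz was at 325, 354 and 320 CPM in the knockout libraries and 394, 410 and 381 CPM in the wild-type ones. Its edgeR adjusted p was 0.271. H2afz was picked for its likeness to Apcdd1, so its lack of overlap between the groups comes with that choice. Over all genes tested, 6.58% had every knockout value below every wild-type value.

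Of 94 tested genes on 6 lists of other pathway parts, 0 rose and 2 fell in edgeR, or 2.13%. The share over all genes tested was 0.659%, with 0.624% higher and 0.0358% lower. The 94 pathway genes had a median log2 fold change of 0.02. Both that fell were on the list of endothelial genes that depend on Wnt signalling, where 0 of 13 rose, 2 fell and the median log2 fold change was -0.10. At an unadjusted p under 0.05, 2 of the 13 were higher and 4 lower, against 4.63% and 3.46% of all genes tested. The same shares stand beside the unadjusted counts of the other lists below. Some of these barrier genes already stood out in the full comparison of the series, so they are no independent evidence.

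Slc38a5, which encodes a glutamine transporter found in endothelial cells of the brain, was at 2.25, 3.39 and 2.84 CPM in the knockout libraries, against 13.3, 16.8 and 17.4 CPM in the wild-type libraries. It fell by 2.48 on the log2 scale, with an SE of 0.175, and each knockout value was far below each wild-type value (edgeR adjusted p = 0.000854). It also passed in each fit that left out 1 library. Cldn5, the main claudin of the barrier, was at 44.8, 47.0 and 45.7 CPM in the knockout libraries, against 63.8, 67.8 and 63.3 CPM in the wild-type libraries. It fell by 0.50 on the log2 scale, with an SE of 0.0585 (edgeR adjusted p = 0.00840), while summed endothelial markers were higher in knockout. Without knockout replicate 1 or 3 its edgeR adjusted p was 0.0543 and 0.0780, without wild-type replicate 2 it was 0.0685, and without wild-type replicates 2 and 3 together it was 0.117. In DESeq2 Slc2a1, the barrier glucose transporter, also passed as higher, and Slco1c1, a thyroid hormone transporter, as lower (adjusted p = 4.6e-05 and 0.00331), while edgeR gave 0.0524 and 0.177. Both genes passed in edgeR with no low-count filter and without replicate 1 of each group.

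The other 5 lists had no gene past the threshold in edgeR with no added term, and limma-voom passed none of theirs. Among 23 further receptors and ligand handling genes, 4 were higher and 0 lower at an unadjusted p under 0.05, with a median log2 fold change of 0.09. Rspo3, a secreted protein that strengthens Wnt receptors, was at 23.2, 23.9 and 22.5 CPM in the knockout libraries, against 18.5, 19.0 and 18.2 CPM in the wild-type libraries. The groups did not overlap, and edgeR gave an adjusted p of 0.140. It passed in DESeq2 (adjusted p = 0.0236) and in edgeR with the embryonic globin term (adjusted p = 0.0449). Fzd7, another Frizzled receptor, was at 0.21 on the log2 scale, with an SE of 0.0696 (edgeR adjusted p = 0.430).

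Of 15 extracellular inhibitors 14 were tested, and 2 were higher and 1 lower at an unadjusted p under 0.05. Kremen1, a co-receptor of the Dkk inhibitors, was at 0.34 on the log2 scale, with an SE of 0.0743, and passed in DESeq2 but not in edgeR (adjusted p = 0.0179 in DESeq2 and 0.137 in edgeR). Frzb, a secreted Wnt binder, was at -0.43 on the log2 scale, with an SE of 0.139 (edgeR adjusted p = 0.410). Among 19 beta-catenin transducers 1 was higher and 0 lower at an unadjusted p under 0.05, with a median log2 fold change of 0.03. The kinase gene Gsk3b was at 0.15 and the Dishevelled gene Dvl1 at -0.18 on the log2 scale (edgeR adjusted p = 0.604 and 0.641). DESeq2 passed none of the transducers.

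Of 17 other Wnt ligand genes 14 were tested, and 0 had an unadjusted p under 0.05 in edgeR and 0 passed in DESeq2. Their median log2 fold change was -0.00771, with Wnt5b at -0.33 and Wnt16 at 0.37 (edgeR adjusted p = 0.632 and 0.892). Of 11 general beta-catenin targets 2 were higher and 0 lower at an unadjusted p under 0.05, with a median of 0.01, and DESeq2 passed none. They were Bambi, a decoy receptor, at 0.32, and the cyclin gene Ccnd1 at 0.20 on the log2 scale (edgeR adjusted p = 0.574 and 0.589).

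**Figure D4:**
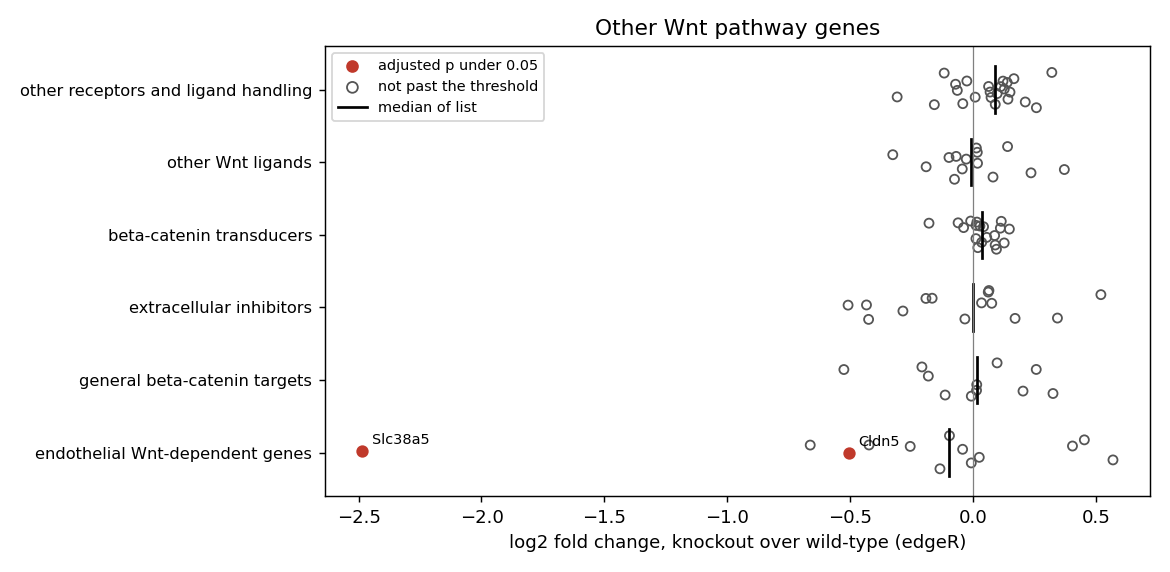
Log2 fold change of knockout over wild-type (horizontal axis) for each tested gene of 6 lists of other Wnt pathway parts, with filled red points past an adjusted p of 0.05, open points for the rest and a black line at each list's median. Slc38a5 and Cldn5 are the 2 filled points, both lower in knockout.

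Markers of other cell types are given for comparison with the values above. Over all genes tested, 0.659% passed in edgeR, and at an unadjusted p under 0.05, 4.63% were higher and 3.46% lower. In DESeq2 1.48% of all genes passed. Mural cell markers summed to 263 to 314 CPM in knockout and 347 to 367 CPM in wild-type brains, and 1 of 10, Rgs5, fell. At an unadjusted p under 0.05 in edgeR, 0 of the 10 were higher and 2 lower, and their median log2 fold change was -0.10. Neural progenitor markers summed to 2212 to 2308 CPM in knockout and 2162 to 2283 CPM in wild-type brains, and microglial markers to 105 to 128 CPM in knockout and 97.8 to 114 CPM in wild-type brains. Markers of the cortical hem and choroid plexus ran from 683 to 1393 CPM in knockout and from 1004 to 1124 CPM in wild-type brains. Fibroblast markers ran from 993 to 1250 CPM in knockout and from 844 to 1697 CPM in wild-type brains, and erythroid markers from 1699 to 3446 CPM in knockout and from 1115 to 2373 CPM in wild-type brains. In edgeR 0 markers of these 5 lists passed, 1 each of the progenitor, choroid and erythroid lists was higher at an unadjusted p under 0.05, and DESeq2 passed 0. Of 8 Hox markers tested, edgeR passed 0, 7 were lower at an unadjusted p under 0.05, and DESeq2 passed 3 as lower. The neuronal and epidermal lists had 0 in edgeR, 0 at an unadjusted p under 0.05 and 0 in DESeq2. Their part in the values of the 10 genes was not tested.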

How the data were processed

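The series holds 6 libraries of mouse whole brain, grouped by their titles into 3 knockout and 3 wild-type. The deposited counts are unnormalized whole numbers of reads for each symbol. The submitters' processing notes name the tools STAR 2.5.2a and featureCounts, DESeq2 1.12.4, and the builds mm10 and hg19, without saying which served what. The sources used here give neither the strand setting nor the annotation release. Counts of genes that overlap others on the opposite strand (Wnt7b, Tspan12, Lef1 and Axin2) are therefore uncertain. A second table from the authors lists, per the file headers, a log2 fold change with its error, a mean normalized signal, a p-value, an adjusted p-value and a Wald score, and served only as a check.

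The filterByExpr function of edgeR 4.0.16 chose the genes, which were scaled by TMM and compared between knockout and wild-type by robust quasi-likelihood, adjusted by Benjamini-Hochberg over all 19565 genes at 0.05. CPM use TMM-scaled library sizes. RPKM divide them by the exon length in GENCODE M21 (GRCm38), which also gave coordinates. The script was tested on simulated data. Alternatives included DESeq2 1.42.0 and limma-voom 3.58.1, in R 4.3.3.

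The 10 genes, the 6 pathway lists and the 10 marker lists were chosen with earlier results of these data known. The naming rule took all 10 genes, each list's genes past the threshold or otherwise its 2 lowest p-values, and for each target the 2 closest profiles. Adgra2, Slc2a1 and Slco1c1 were added after their values were seen.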

Additional observations from a re-analysis of the deposited data

How the results depend on the processing

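The count of the 10 genes past the threshold was 0 in 14 of 16 alternatives. It was 2 in the DESeq2 Wald test (Fzd4 and Lrp5) and 1 with the embryonic globin term (Fzd4). The causes were not tested. The count of other pathway genes was 2 as reported, where 129 of all 19565 genes tested passed. It was 4 with no low-count filter, where 211 of 34055 genes passed, and 6 in DESeq2, where 309 of 20830 passed. With the embryonic globin term it was 3 (Cldn5, Slc38a5 and Rspo3), where 236 of 19565 passed. Without both libraries high in Krt5 (replicate 1 of each group) it was 4, where 459 of 19849 passed. Without single libraries it was 1 to 2, where 36 to 388 of all genes tested passed. The totals over all genes thus moved as well. Leaving out libraries also leaves fewer samples. Without both libraries high in Hox genes (wild-type replicates 2 and 3), 1 wild-type library was left and assumed to vary like the others. For that fit no count of other pathway genes is given.

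Directions turned in 5 genes, and the causes were not tested. Without both libraries high in Hox genes the log2 values were -0.064 for Wnt7a and -0.018 for Wnt7b. Tspan12 was at -0.030 without both libraries high in Krt5. With 1 library left out, values ran from -0.023 to 0.095 for Wnt7a, from -0.22 to 0.048 for Ndp, from -0.053 to 0.050 for Tspan12 and from -0.099 to 0.10 for Axin2. Fzd4, Lrp5, Lef1, Reck and Apcdd1 kept their sign in all 16.

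Replicate numbers were not taken to pair the samples, since deviations correlated at 0.587, 0.310 and 0.034 for numbers 1, 2 and 3, and the second knockout library was closest to the third wild-type one (0.478). A fit with the replicate block called 0 of the 10 genes and 4 other pathway genes, with Apcdd1 at -0.22 (edgeR adjusted p = 0.0649). Over all 19565 genes tested, that fit called 282, of which 212 were higher and 70 lower in knockout. Depth limits Ndp most, with 192 to 287 counts per library.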
